A study of Homo sapiens with 8 samples.

Results

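NALF1, NRG1, ELL2 and ASAP1 are 4 protein-coding genes whose transcripts carried several separate CTCF-bound sites in senescent human fibroblasts. They are 4 of the 246 genes bound in senescent cells. Their members are the peaks that overlap the annotated span of 1 of these genes on the gene's strand, with peaks no more than 50 nt apart joined into sites. By this rule 30 of 572 senescent peaks and 0 of 147 proliferating peaks belonged to them, and the 30 peaks formed 14 of the 286 senescent sites. NALF1 had 5 sites, NRG1 4, ELL2 3 and ASAP1 2. The genes were chosen by their numbers of senescent sites, which are therefore given as a description and were not tested.

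The series profiled CTCF-bound RNA in IMR90, a line of primary human lung fibroblasts, by enhanced crosslinking and immunoprecipitation (eCLIP), in which RNA fixed to a protein by ultraviolet light is recovered with an antibody to that protein and sequenced. It held 8 libraries: 2 eCLIP and 2 antibody-free input libraries of untreated proliferating wild-type cells, and 2 of each from wild-type cells driven into senescence by a treatment labelled ICM. The cells came from 2 isolates, which the labels do not tie to single libraries. Each condition is represented by 1 list of input-normalised peaks on build hg38, with no value for a single replicate, so no SD and no test between conditions is given, and the read depth is unknown. Each peak has a signal value, an input-normalised score whose scale is not stated and which is nowhere below 3, and a -log10 p-value against input, which ends at a ceiling of 400. The cells were pooled in bulk, so fewer cells that make a transcript and less of it per cell cannot be told apart.

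CTCF is a zinc-finger protein best known for holding chromatin loops in place on DNA, and it also binds RNA. A crosslinked site can lie in an exon or in an intron of a transcript that is not yet spliced, and long genes have long introns. The 4 genes have unrelated functions. NALF1 (also FAM155A) is an auxiliary subunit of the NALCN sodium leak channel and is best known from neurons. NRG1 encodes neuregulin 1, an EGF-family growth factor that signals through ERBB3 and ERBB4 and is made in many isoforms from alternative starts. ELL2 is an elongation factor of RNA polymerase II and part of the super elongation complex. ASAP1 is a GTPase-activating protein for Arf GTPases that acts at focal adhesions and in membrane traffic. Whether a site is exonic or intronic was not analysed here, and the sequences beneath the sites were not read, because no genome sequence of this build was used.

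The 4 genes had no listed peak in proliferating cells, on either strand. This alone does not set them apart, because 88.6% of the 246 senescent genes had no proliferating peak, and 83.9% of the 31 with 2 or more senescent sites had none. Both lists leave out weak peaks, so an unlisted gene may still be bound. By the rule, all 30 senescent peaks lie on the strand of their gene. No further senescent peak was listed on the opposite strand of these genes.

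NALF1 carried the most sites of any gene in the senescent list. The gene spans 704 kb (chromosome 13, 107163510 to 107867496, minus strand), with 1 annotated transcript. Its 5 sites, numbered from the 5′ end of the gene, lay 36.7, 65.6, 150.5, 262.7 and 359.5 kb from the annotated start. All of them thus fell between 5.22% and 51.1% of the way along the gene, and the 3′-most 344.4 kb held none. The distances between neighbours were 28.8, 84.8, 112.2 and 96.8 kb. From the first to the last site the bound stretch measured 322.9 kb, or 45.9% of the gene, while the peaks themselves covered 296 nt.

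The NALF1 sites were unequal in strength. Here and below, a site is given by its highest signal value and its highest -log10 p-value, which can come from different peaks. Site 2 (chr13:107801827-107801900) reached a signal value of 5.29 and a -log10 p-value of 85.9, ranking 15th of 286 senescent sites by p-value. Site 5 (chr13:107507894-107507980) reached 5.25 and 61.1, ranking 24th by p-value. The other sites were far weaker by p-value. Site 1 (chr13:107830722-107830776) reached a signal value of 4.49 and a -log10 p-value of 10.6. Site 3 (chr13:107717003-107717005), a single peak of 3 nt, had 4.11 and 9.37. Site 4 (chr13:107604745-107604821) reached 4.82 with a -log10 p-value of 7.40. By signal value sites 2 and 5 ranked 90th and 93rd of 286, so the ranks by the 2 measures differed widely.

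Sites 1 and 2 of NALF1 also lie inside NALF1-IT1, a long non-coding RNA gene on the same strand (chromosome 13, 107787361 to 107835458). Which of these RNAs was bound there cannot be told apart. Sites 3, 4 and 5 overlap no other annotated gene, with the nearest gene boundary 70355, 49428 and 15521 nt away.

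NRG1 carried 4 sites, all crowded into the 3′ part of a very long gene. It spans 1135 kb (chromosome 8, 31639245 to 32774046, plus strand), the longest of the 31 senescent genes with 2 or more sites. The sites started 982.7, 983.9, 996.6 and 1056 kb from the annotated start, between 86.6% and 93.1% of the way along. They occupied 73.6 kb, or 6.49% of the gene, and the first 982.7 kb held no listed peak. The first 2 sites were only 1.03 kb apart, the third followed after 12.7 kb and the fourth after 59.5 kb. RefSeq lists 28 transcripts for NRG1, and the distance is measured from the most upstream annotated start, which need not be the start in use in these cells.

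In NRG1 the signal value and the p-value picked out different sites. Site 2 (chr8:32623098-32623187) had the highest signal value of the 14 sites, 5.94, which ranked 28th of 286, but its -log10 p-value of 8.92 ranked 207th. Site 3 (chr8:32635888-32635971) showed the reverse, with a signal value of 4.48, ranking 180th, and a -log10 p-value of 31.0, ranking 49th. Sites 1 and 4 were both below the senescent list's median site by p-value, 12.4. Site 1 (chr8:32621969-32622063) reached 4.20 and 11.3. Site 4 (chr8:32695513-32695602) reached 4.86 with the lowest -log10 p-value of the 14 sites, 6.30. No NRG1 site overlapped another annotated gene.

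ELL2 combined a close pair of sites near the gene's start with 1 site far downstream. The gene spans 76.8 kb (chromosome 5, 95885098 to 95961851, minus strand) and has 5 annotated transcripts. Site 1 (chr5:95960491-95960559) began 1292 nt and site 2 (chr5:95960264-95960324) 1527 nt from the annotated start, with 166 nt between them. Site 3 (chr5:95906688-95906817) lay 55.0 kb from the start, after a stretch of 53.4 kb with no listed peak. ELL2 was the shortest of the 4 genes and had the highest density, 3.91 sites per 100 kb against 0.710 in NALF1, 0.511 in ASAP1 and 0.352 in NRG1.

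The pair near the start of ELL2 was the stronger part by p-value. Sites 1 and 2 reached -log10 p-values of 25.6 and 26.9, with signal values of 3.99 and 5.30. In site 2 these came from different peaks: 26.9 from a peak of 53 nt with a signal value of 4.50, and 5.30 from one of 8 nt. Site 3 reached 7.71 with a signal value of 4.34. Site 1 had the lowest signal value of the 14 sites although its p-value ranked 63rd of 286. The oppositely transcribed gene CAST begins inside the 5′ end of the annotated ELL2 span, and its annotated boundary is 869 nt from site 1. The ELL2 peaks are on the minus strand and CAST is on the plus strand.

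ASAP1 had 2 sites a long way apart. The gene spans 391.6 kb (chromosome 8, 130052104 to 130443674, minus strand), with 24 annotated transcripts. Site 1 (chr8:130288051-130288125) lay 155.5 kb from the annotated start and site 2 (chr8:130162060-130162119) 281.6 kb, at 39.7% and 71.9% of the gene. The 125.9 kb between them was the widest distance between neighbouring sites in the 4 genes. Site 1 had the higher signal value, 5.41 against 4.21, and site 2 the higher -log10 p-value, 11.4 against 9.36. Site 2 lies 852 nt from the annotated snoRNA gene LOC124900269 and does not overlap it.

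**Figure D1:**
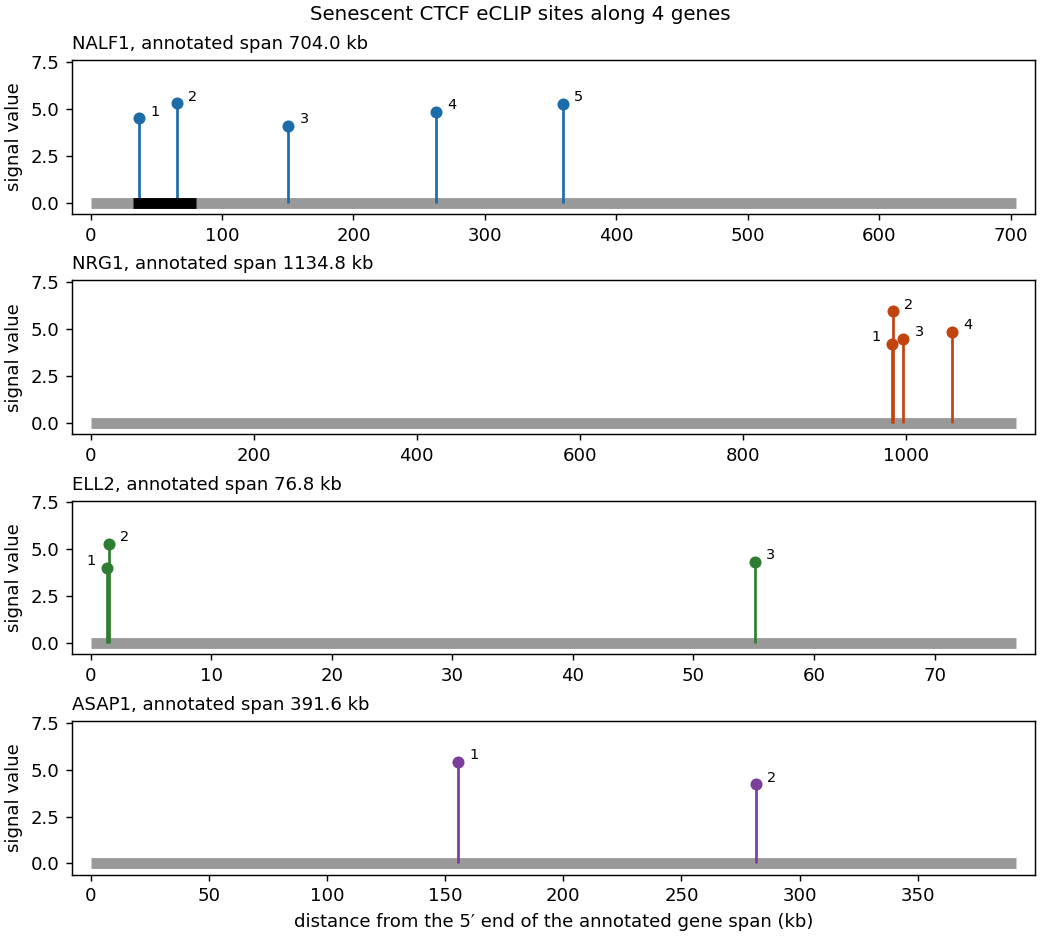
Each panel is 1 gene, with distance from the 5′ end of its annotated span on the horizontal axis (kb) and the highest signal value of each senescent site on the vertical axis; sites are numbered from the 5′ end, the grey bar is the gene and the black bar in the top panel is NALF1-IT1. The 5 NALF1 sites spread over the 5′ part of the gene, the 4 NRG1 sites gather between 982.7 and 1056 kb, and ELL2 has a pair next to its start.

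The 4 genes therefore had no common position along the gene. The midpoints of the 14 sites ranged from 1.73% of the gene length in ELL2 to 93.1% in NRG1, with a median of 45.4%. Of the 10 distances between neighbouring sites, 8 exceeded 10 kb, and the median was 56.5 kb with a range of 0.166 to 125.9 kb. Over all 31 senescent genes with 2 or more sites, the median of 38 distances was 7.57 kb and 18 exceeded 10 kb. These 38 include the 10 distances of the 4 genes.

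Most sites of the 4 genes were built from several adjoining peaks. There were 12 of 14 sites with 2 or more peaks (85.7%), against 70.6% of all senescent sites: 8 had 2 peaks, 4 had 3 and the other 2 were single. In 10 of these 12 sites the peaks touched without a gap, and in ELL2 sites 1 and 3 the widest gaps were 3 and 26 nt. Sites were 3 to 130 nt wide with a median of 76 nt, close to the median of 71 nt over the other 272 senescent sites.

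Read 5′ to 3′ along the RNA, these sites had a build shared by most multi-peak sites of the senescent list. The narrowest peak stood at the 3′ end in 12 of 12 multi-peak sites, against 91.6% of the 202 such sites in the whole senescent list. In NALF1 site 5 a peak of 72 nt with a signal value of 4.37 was followed by one of 15 nt with 5.25. In NRG1 site 2 the peaks were 59, 21 and 10 nt wide and their signal values 5.21, 5.73 and 5.94. In ASAP1 site 1 a peak of 68 nt with 4.91 was followed by one of 7 nt with 5.41. The signal value was likewise highest in the 3′-most peak in 10 of 12 sites, against 67.8% in the whole list. The exceptions were NRG1 site 4, where the first 2 peaks both had 4.86 and the last 4.76, and ELL2 site 3, where the middle peak was highest at 4.34.

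**Figure D2:**
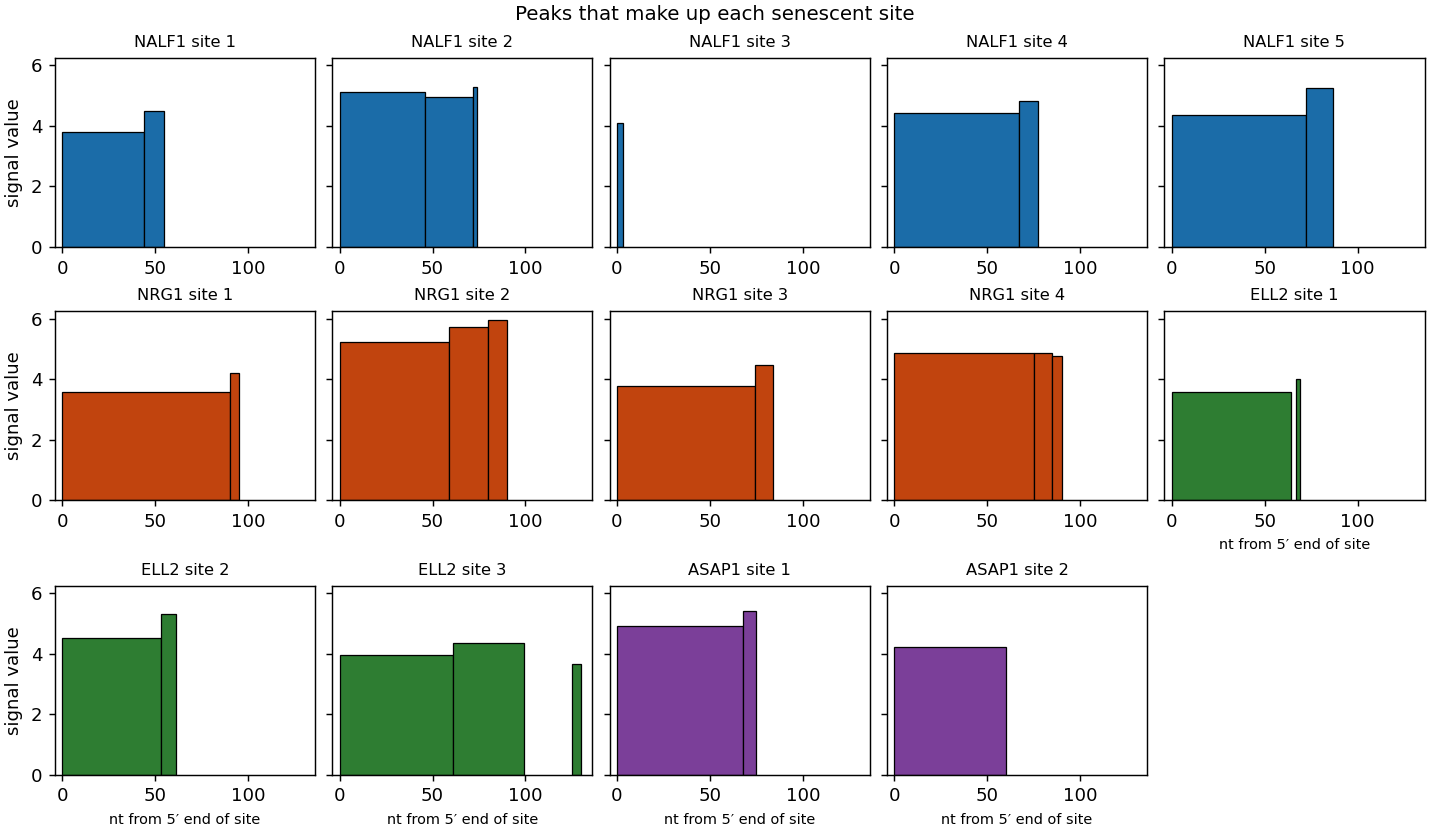
Each panel is 1 of the 14 senescent sites; a bar is 1 peak, with its extent in nt from the 5′ end of the site on the horizontal axis and its signal value as height. A wide peak is followed by a narrower one at the 3′ end in each of the 12 sites with 2 or more peaks, and in 10 of them the last bar is the highest.

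In median signal value the 14 sites were close to the rest of the senescent list, while their p-values were spread unevenly. The highest signal value per site ranged from 3.99 to 5.94 with a median of 4.66, and the median over the other 272 sites was 4.83. The highest -log10 p-value per site ranged from 6.30 to 85.9 with a median of 10.9, against 12.7 over the other sites. A -log10 p-value of at least 10 was reached by 8 of the 14 sites (57.1%), against 65.0% of all senescent sites. The ceiling of 400 was reached by 0 of the 14, against 4.55% of all senescent sites. By signal value 6 of the 14 sites and by p-value 5 of the 14 lay above the median of all senescent sites. These 5 were NALF1 sites 2 and 5, NRG1 site 3 and ELL2 sites 1 and 2. Their -log10 p-values, from 25.6 to 85.9, all exceeded the senescent list's upper quartile of 22.9. The remaining member sites all lay below its median of 12.4.

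**Figure D3:**
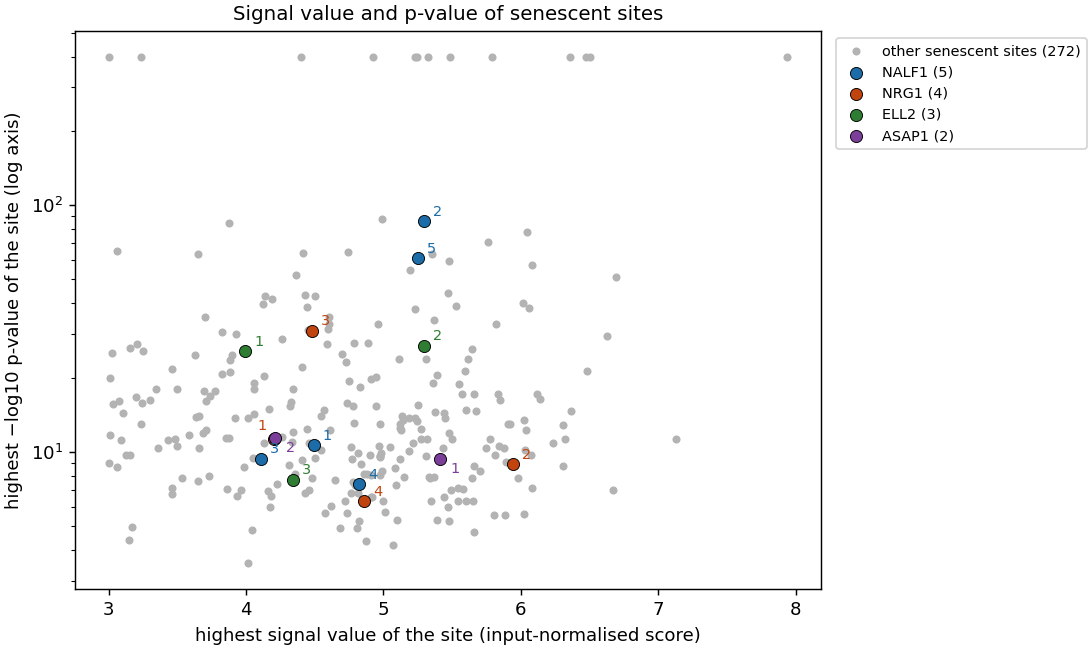
Each point is 1 senescent site, with its highest signal value on the horizontal axis and its highest -log10 p-value on the vertical log axis; coloured points are the 4 genes with site numbers, grey points the other 272 sites. NALF1 sites 2 and 5 stand highest among the coloured points at 85.9 and 61.1, and NRG1 site 2 is farthest right at 5.94.

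Carrying several sites was uncommon in the senescent list. Of its 246 genes, 31 had 2 or more sites (12.6%) and 4 had 3 or more (1.63%). The latter were NALF1, NRG1, ELL2 and COL5A1, a fibrillar collagen gene with 3 sites over 34.4 kb. COL5A1 was not chosen although it has more sites than ASAP1, which shares its count of 2 with 26 other genes. In the proliferating list 21 of 70 genes had 2 or more sites (30.0%) and 11 had 3 or more (15.7%), led by COL1A2, a collagen gene, and PLEC, the cytoskeletal linker plectin, with 7 sites each.

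Bound genes were longer in the senescent list as a whole, with a median span of 59.9 kb over all 246 genes against 27.8 kb over the 70 proliferating genes. Both medians include very short small RNA genes, and their part in this difference was not tested. The 31 senescent genes had a median span of 107.2 kb, and 8 were 300 kb or longer; the 21 proliferating genes had a median of 34.7 kb and the longest measured 205.9 kb. Among senescent genes of 300 kb or longer, 8 of 22 had 2 or more sites (36.4%), compared with 9.82% of those from 50 to 300 kb and 10.7% of shorter ones. In the proliferating list the shares were 0 of 3, 44.4% and 26.5%, in the same order. NALF1, NRG1 and ASAP1 were 3 of those 8. The others were DST (dystonin, a cytoskeletal linker), EXT1 (a heparan sulfate polymerase), SLC4A4 (a bicarbonate cotransporter), SND1 (a nuclease-domain protein) and TRIO (a guanine nucleotide exchange factor). A longer transcript offers more positions for a site, and the part of length in these counts was not tested.

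**Figure D4:**
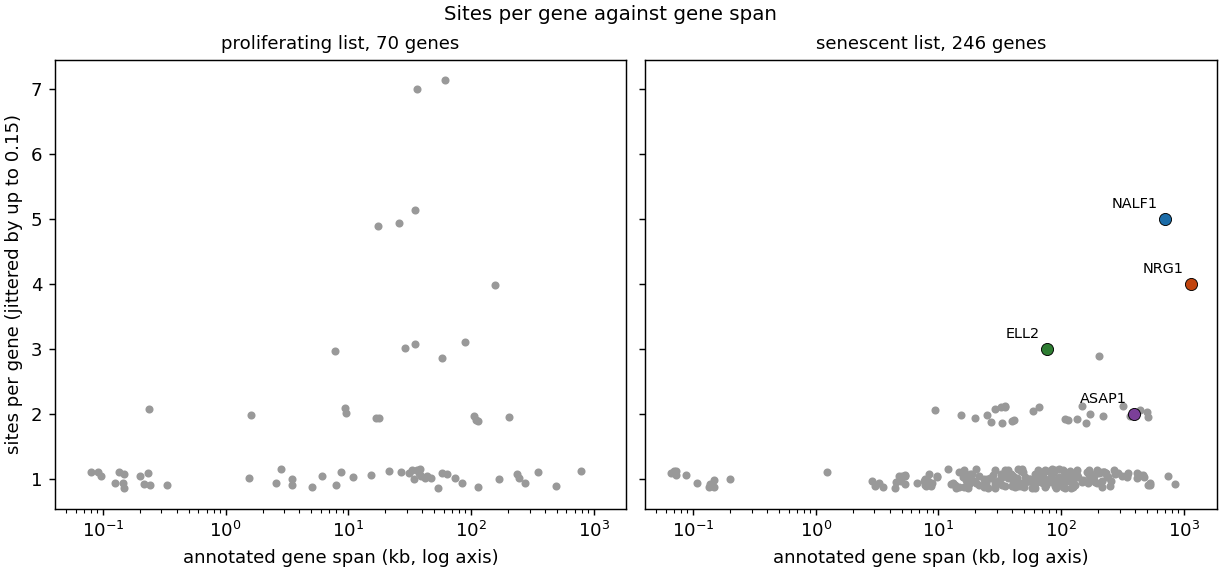
Each point is a gene, with its annotated span (kb, log axis) against its number of sites, in the proliferating list (left, 70 genes) and the senescent list (right, 246 genes); grey points are jittered vertically by up to 0.15. The senescent genes with the most sites, NALF1 with 5 and NRG1 with 4, are far longer than COL1A2 and PLEC with 7 each on the left.

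The bound stretch of NALF1 was the longest of the 31 senescent genes. Its 322.9 kb from first to last site was followed by 188.3 kb in SND1, 128.8 kb in EXT1 and 126.1 kb in ASAP1. NRG1 ranked 6th with 73.6 kb and ELL2 10th with 53.9 kb. All 4 genes were thus among the 10 genes whose sites extended over more than 50 kb. The other 27 genes had a median extent of 4.16 kb, and in 10 of the 31 all sites fell within 1 kb. In the proliferating list 0 of 21 genes exceeded 50 kb, and the widest was COL6A3 with 44.4 kb. None of these values has a replicate error.

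**Figure D5:**
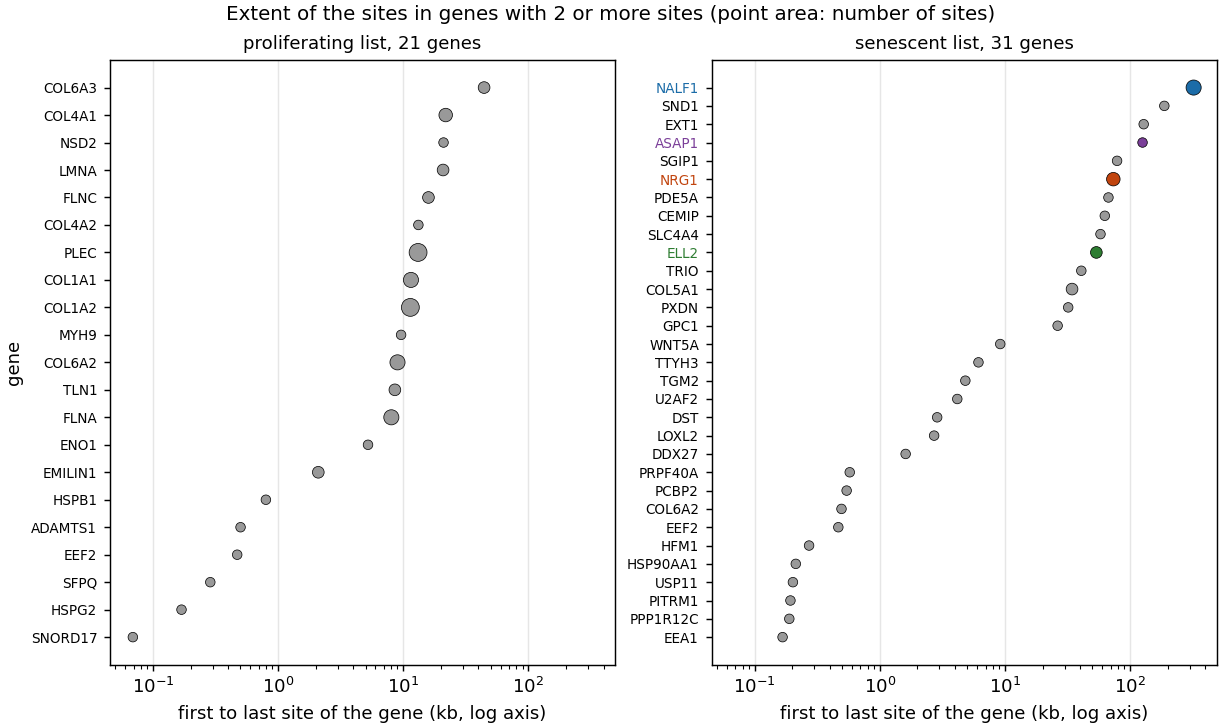
Each row is a gene with 2 or more sites in the proliferating (left) or senescent (right) list; the horizontal axis is the distance from the start of its first to the end of its last site (kb, log axis) and the point area grows with the number of sites. NALF1 is at the top right with 322.9 kb, and no proliferating gene passes 44.4 kb.

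Partners of the 4 genes were looked up in both lists. Of all 20052 annotated protein-coding genes, 1.22% had a senescent and 0.304% a proliferating peak over their span, so most genes of any short list are unlisted. None of the 4 other NALCN complex genes, 12 neuregulin and ErbB signalling genes or 15 elongation factor genes examined had a peak in either list. ERBB3, ERBB4, NALCN, AFF4 and CDK9 were among these. Of 14 Arf GAP and focal adhesion genes around ASAP1, 1 had a senescent and 1 a proliferating peak. The senescent one was VCL, the focal adhesion protein vinculin, with a signal value of 3.03 and a -log10 p-value of 15.7. The proliferating one was TLN1, the integrin-binding protein talin 1, with 3 sites and values of up to 3.86 and 4.35. Of 13 fibroblast marker genes, 2 had a senescent peak (COL6A2 and DCN) and 5 had a proliferating peak. Of 11 epithelial, endothelial and immune markers 0 had a peak in either list, which at the shares above says little about the cells. Peak lists do not measure expression, and the levels of the 4 transcripts themselves were not measured here.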

How the data were processed

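RNA bound by CTCF was measured by eCLIP in proliferating and senescent IMR90 cells. The deposited lists are narrowPeak files on hg38 of peaks normalised to input, per the file headers; the peak caller, thresholds, joining of replicates and read depth are not given in the sources used here. Each list was attached to 1 eCLIP library, but its header names both replicates, and it was taken as their joint list. The deposited signal value is a score of unstated scale, and the deposited -log10 p-value is capped at 400.

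Same-strand peaks with at most 50 nt between them were merged into sites with Python 3.11.15 and pandas 2.3.3. Gene spans came from RefSeq (GRCh38.p14, 59788 genes with a position), which gives no exons. The strand of NALF1 came from a table of gene starts, and that of the other members from general knowledge. The RefSeq spans give no strand, so the strands stated for NALF1-IT1 and CAST were not taken from them. For counts over all genes, a site over several genes went to a small RNA gene, then a protein-coding gene, then a lncRNA gene, the shorter first. Strand was not used for these counts or for the shares of protein-coding genes, which can therefore include peaks on the opposite strand. Members were counted on their own strand only. Coordinates are 1-based. Merging and assignment were tested on simulated peaks over genes that do not overlap. The order among gene types and the strand rule for members were not covered.

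The members and lists were chosen with earlier results of these data known. Named genes are the members, the genes with at least as many sites as ASAP1, and the partner and marker lists. No test was run, and values are described within their list.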

Additional observations from a re-analysis of the deposited data

How the results depend on the processing

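For 7 results 46 alternatives were computed: 39 stayed within 1.5 times the count, or within the quartiles over sites or peaks for a median, and 7 moved. The 14 senescent sites became 8 when a -log10 p-value of at least 10 was required and 7 when each list was limited to its 50% of peaks with the highest signal. ASAP1 then had 1 site under either limit and ELL2 1 under the limit on signal, so these no longer had several. The median distance between sites, 56.5 kb, fell to 21.3 kb under the limit on the p-value, which is within the quartiles. Under the limit on signal it rose to 96.8 kb, which counts as moved. With only the 147 senescent peaks of highest signal value kept, 4 sites were left, 1 in each of the 4 genes. Each of these limits keeps fewer peaks, and the cause of the changes in distance was not tested. Merging peaks within 200 nt joined the ELL2 pair near the start and left ELL2 with 2 sites, while merging only touching peaks gave it 5. The 31 senescent genes with several sites became 50 with only touching peaks merged, 19 under the same minimum on the p-value and 4 with at least 3 sites required. The proliferating count of 0 could have risen only by allowing either strand, where it stayed 0. Its other alternatives, which are among the 39, tested nothing. Allowing either strand, or requiring the whole peak inside the span, also left the senescent sites, distances and positions identical. No senescent peak lay on the opposite strand of these genes or crossed a gene boundary, so these alternatives, also among the 39, had nothing to change. No paired analysis was possible because no replicate has values of its own in the files, and leaving out each replicate was not run for the same reason. The unknown read depth limits how many peaks can be listed.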

Other observations

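Many peaks shared exactly the same p-value with another peak. Below the ceiling of 400, 260 of 536 senescent peaks (48.5%) had a -log10 p-value found in at least 1 other senescent peak, as did 16 of the 30 peaks in NALF1, NRG1, ELL2 and ASAP1. The first peak of NALF1 site 4 (signal value 4.42) and the first peak of ELL2 site 3 (signal value 3.96) had the same -log10 p-value, which was listed for 6 senescent peaks in all. In NRG1 site 4 the first 2 peaks had the same signal value, 4.86, and the same -log10 p-value, 6.30. In NRG1 site 2 the last 2 peaks shared a -log10 p-value of 8.92 with signal values of 5.73 and 5.94. Equal p-values thus went with unequal signal values in some peaks. The cause was not tested.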
